A study of Mus musculus with 60 samples.

Results

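The depot-patterning transcription factors of fat described here are 10 genes whose activity is known to differ by body position or by fat depot. They were chosen by symbol, as Shox2, Tbx15, En1, Tcf21, Hoxc8, Hoxc9, Hoxc10, Hoxa5, Nr2f1 and Gata6, and were mapped to Ensembl IDs among the 54232 gene IDs of the count table. All 10 were found, and all 10 had counts in both depots. Earlier results of these data were known when the symbols were chosen, so the list is not independent of the data. The values come from 40 of the study's 60 RNA-seq libraries, 20 of visceral adipose tissue (VFAT) and 20 of subcutaneous adipose tissue (SFAT).

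White fat lies in depots that form from different mesoderm. Visceral fat sits beside the mesothelium, the cell sheet that lines the body cavity, and subcutaneous fat sits under the skin of the trunk. Fat cells and their precursors keep the transcription factors of the place in which they arose. Hox genes, which lie in 4 clusters (HoxA to HoxD), are known to be used in order along the cluster from the front to the rear of the body. Shox2, Tbx15 and En1 are known from trunk, limb and dermal mesenchyme and mark subcutaneous fat in mice, and Tcf21 marks mouse visceral preadipocytes.

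Each depot had 4 groups of 5 libraries, named Western Diet + NaKtide, Western Diet, Control + NaKtide and Control. Mice ate a Western diet with 42% fat or a chow with 11% fat for 12 weeks. NaKtide is a peptide made from part of the Na,K-ATPase, which blocks the signal from this pump to the kinase Src, and its transgene was switched on with 300 mg/kg doxycycline in custom forms of both diets. The sources used here name neither the promoter that drives the transgene nor the strain, sex and age. They also leave unsaid whether mice without NaKtide ate doxycycline, so every NaKtide comparison may include an effect of the drug. Each group stands for 5 mice. Whether a mouse gave both of its depots is not labelled, and p-values measure the spread between these samples. Fat libraries held 3.49 to 9.78 M counts with a median of 6.98 M, and levels are CPM, each library's counts as a share of its total, scaled by TMM over the 40 fat libraries unless another scale is named.

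The depot labels were checked against 10 mesothelium genes, which should be present in VFAT and scarce in SFAT, and all 10 had counts in both depots. Their summed level was 35 to 1570 CPM in 19 VFAT libraries, against 1.89 to 69.4 CPM in 19 SFAT libraries. The other 2 libraries went against their labels. The library labelled VFAT Western Diet + NaKtide replicate 1 had 3.94 CPM, and the library labelled SFAT Western Diet + NaKtide replicate 1 had 93.5 CPM. These 2 libraries also carried the other depot's members, as given below, and the reason was not tested. Results that rest on them are given with and without them. Since the members were part of the reason to doubt these libraries, the values without them are a description, and a rule that reads the mesothelium genes alone (over 10 CPM in SFAT, under 10 CPM in VFAT, 5 libraries left out) is given beside them. The library labelled VFAT Control replicate 1 had 74.3 CPM of mesothelium genes together with genes of both depots. Adipocyte markers summed to 937 to 23200 CPM in VFAT and 9800 to 23600 CPM in SFAT, with all 8 detected in each depot. Of the 20 VFAT libraries 8 held over 1000 CPM of epididymis and testis genes. These 8 include replicates 3, 4 and 5 of VFAT Control and replicates 2, 3 and 5 of VFAT Western Diet + NaKtide. Fits without them keep replicate 1 of both groups, the VFAT libraries named above. Of the 20 SFAT libraries 7, all on chow, held over 10000 CPM of skeletal muscle genes. In whole tissue, fewer cells of a type and less RNA per cell cannot be told apart.

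Promoter windows are shown for the member that was higher in VFAT and for 2 of those that were lower, since they moved in opposite directions between the depots. Each window runs from 250 bases before the start site to 50 after it, in the RefSeq annotation of GRCm38.p6, in which 5 of the 10 members had a window. Capitals mark matches, on either strand, to GATAA (the core bound by GATA factors), TATAAA (the TATA box) and CANNTG (the E-box bound by basic helix-loop-helix factors, the class of Tcf21).
Tcf21 promoter, chr10:22820094-22820393, minus strand: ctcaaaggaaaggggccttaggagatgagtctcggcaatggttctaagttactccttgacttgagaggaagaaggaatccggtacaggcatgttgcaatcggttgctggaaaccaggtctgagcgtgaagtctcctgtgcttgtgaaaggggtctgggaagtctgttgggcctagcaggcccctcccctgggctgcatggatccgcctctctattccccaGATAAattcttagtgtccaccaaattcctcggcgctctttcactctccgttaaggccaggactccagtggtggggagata
Shox2 promoter, chr3:66981722-66982021, minus strand: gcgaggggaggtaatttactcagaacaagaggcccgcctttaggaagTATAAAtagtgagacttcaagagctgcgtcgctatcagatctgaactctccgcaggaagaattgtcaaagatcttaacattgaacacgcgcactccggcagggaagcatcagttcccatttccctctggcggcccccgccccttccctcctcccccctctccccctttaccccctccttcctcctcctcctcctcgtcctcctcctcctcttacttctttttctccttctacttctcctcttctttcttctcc
En1 promoter, chr1:120602237-120602536, plus strand: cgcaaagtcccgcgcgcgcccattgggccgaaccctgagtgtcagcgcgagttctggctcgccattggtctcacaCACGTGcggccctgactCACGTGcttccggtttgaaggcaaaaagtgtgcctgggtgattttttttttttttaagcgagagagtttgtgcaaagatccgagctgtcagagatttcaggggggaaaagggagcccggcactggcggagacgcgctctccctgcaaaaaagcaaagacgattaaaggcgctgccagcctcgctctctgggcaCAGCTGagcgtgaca
The Tcf21 window held 1 GATAA match, which starts at position -30 from the start site. The Shox2 window held 1 TATAAA match at position -203 and none of the other motifs. The En1 window held 3 CANNTG matches, at positions -175, -158 and 36. Of all 32851 windows, 25.4% held GATAA, 13.6% held TATAAA and 72.3% held CANNTG, so these matches are common, and a match is a description and not a bound site. The 3 windows differed in CpG content. En1 had 23 CG pairs, Shox2 had 11 and Tcf21 had 8, where the median of all windows was 7.

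Between depots, 6 of the 10 factors differed. Averaged over the 4 conditions, 5 members (Shox2, Tbx15, En1, Hoxc10 and Hoxc9) were lower in VFAT than in SFAT, where 12.6% of the 17788 genes tested were called lower. The remaining called member, Tcf21, was higher in VFAT, as were 20.2% of genes. In both directions 32.8% of all genes were called. Hoxc8, Hoxa5, Nr2f1 and Gata6 were not called. Tests used quasi-likelihood fits in edgeR, with p adjusted by Benjamini-Hochberg and called under 0.05, and log2 changes are VFAT minus SFAT with their standard error. Each member passed the filter on low counts in this fit.

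**Figure D1:**
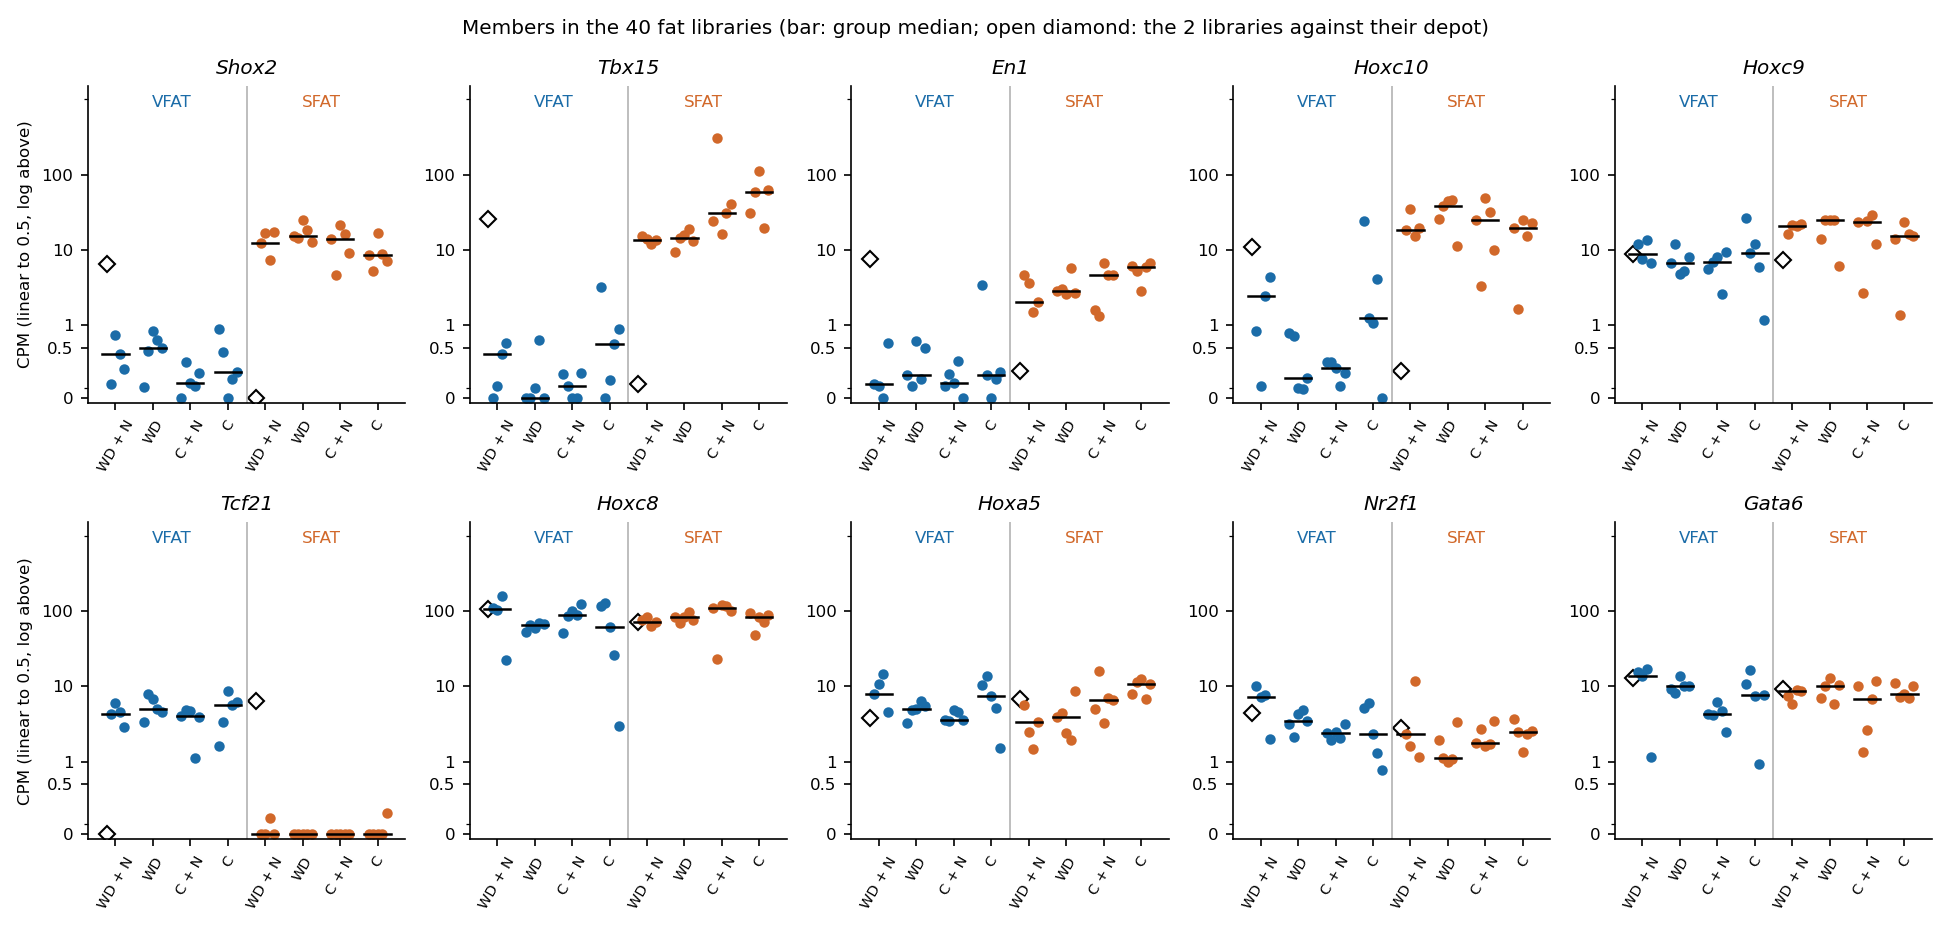
CPM of each of the 10 members (linear up to 0.5, logarithmic above) in every fat library, with the 4 VFAT groups left of the 4 SFAT groups (WD, Western Diet; C, Control; N, NaKtide). Bars are group medians, and open diamonds are replicate 1 of Western Diet + NaKtide in each depot, which for Tcf21 stand at 0 CPM in VFAT and 6.47 CPM in SFAT.

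Shox2, a homeobox factor of limb and trunk mesenchyme that is known to restrain lipolysis in mouse subcutaneous fat (ENSMUSG00000027833, chromosome 3, 66971727 to 66981771, minus strand, GRCm38), had 0 to 6.53 CPM in VFAT with a median of 0.324, against 0 to 24.6 CPM in SFAT with a median of 13.3. The highest VFAT value and the only SFAT value of 0 belong to the 2 libraries named above. Without them VFAT held 0 to 0.9 CPM and SFAT 4.67 to 24.6 CPM, so the groups did not overlap. The change was -4.59 ± 0.45 (adjusted p = 6.04e-08), and without the 2 libraries it was -5.15 ± 0.31 (adjusted p = 8.33e-14). Its gene overlaps Rsrc1 on the opposite strand, which had 7017 counts in fat. The kit keeps strand, but whether counting used it is not given in the sources used here.

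Tbx15, a T-box factor of trunk mesenchyme that is also known from fast muscle fibres in mice (ENSMUSG00000027868, chromosome 3, 99240381 to 99354259, plus strand), had 0 to 25.8 CPM in VFAT with a median of 0.151, against 0.135 to 307 CPM in SFAT with a median of 17.5. Both values that crossed, 25.8 in VFAT and 0.135 in SFAT, came from the same 2 libraries. Leaving them out gave 0 to 3.24 CPM in VFAT and 9.37 to 307 CPM in SFAT, with no overlap. The fitted change was -5.58 ± 0.64 (adjusted p = 6.88e-07), against -6.77 ± 0.51 without them (adjusted p = 2.61e-11).

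The high end of Tbx15 in SFAT lay in libraries with muscle transcripts. In the 7 SFAT libraries over 10000 CPM of 15 muscle genes, Tbx15 had 24.4 to 307 CPM with a median of 58.4. In the 12 others, leaving out replicate 1 of Western Diet + NaKtide, it had 9.37 to 30.8 CPM with a median of 14.7. Even these 12 stood above every VFAT library but the one labelled Western Diet + NaKtide replicate 1. Without the 7 muscle-rich libraries the depot change was -4.77 ± 0.73 (adjusted p = 0.000395).

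**Figure D2:**
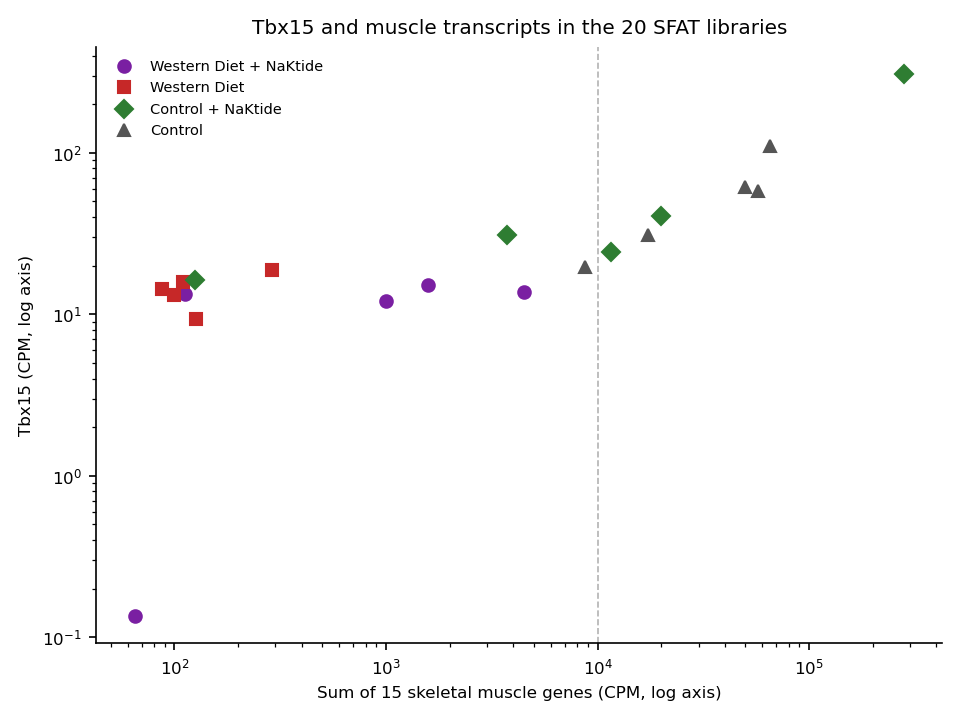
Tbx15 (CPM, log axis) against the summed CPM of 15 skeletal muscle genes (log axis) in the 20 SFAT libraries, with 1 marker per condition. The dashed line is 10000 CPM; the 7 libraries to its right held 24.4 to 307 CPM of Tbx15, and the lowest point, at 0.135 CPM, is Western Diet + NaKtide replicate 1.

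En1, the engrailed homeobox factor of the dermal fibroblast lineage in the mouse trunk (ENSMUSG00000058665, chromosome 1, 120602418 to 120607992, plus strand), was scarce in both depots. It had 0 to 7.52 CPM in VFAT with a median of 0.206, against 0.27 to 6.7 CPM in SFAT with a median of 3.37. Among VFAT libraries, Western Diet + NaKtide replicate 1 had 7.52 CPM and Control replicate 1 had 3.42 CPM, and the other 18 stood at or below 0.617 CPM. The change was -2.70 ± 0.48 (adjusted p = 0.000124), and without the 2 libraries it was -3.53 ± 0.41 (adjusted p = 2.49e-07). There 18 of 19 VFAT libraries lay below all 19 SFAT libraries.

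Tcf21, the basic helix-loop-helix factor of visceral preadipocytes (ENSMUSG00000045680, chromosome 10, 22817281 to 22820174, minus strand), ran the other way. It had 0 to 8.6 CPM in VFAT with a median of 4.59, against 0 to 6.47 CPM in SFAT with a median of 0. Each value out of place was again replicate 1 of Western Diet + NaKtide, with 0 CPM in VFAT and 6.47 CPM in SFAT. The other 19 VFAT libraries held 1.1 to 8.6 CPM, above all 19 other SFAT libraries, which held 0 to 0.212 CPM. Summed over libraries, Tcf21 had 686 counts in VFAT and 50 in SFAT, a ratio of scaled counts of 11.8 (95% counting interval 8.85 to 16.1). Without the 2 libraries SFAT kept 2 counts, and the ratio was 294 (counting interval 81.1 to 2430). The test called Tcf21 higher (adjusted p = 4.01e-06, and 1.57e-11 without the 2 libraries). Its fitted log2 change depends on the prior count and is not used as a size. Counting intervals cover counting error only.

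**Figure D3:**
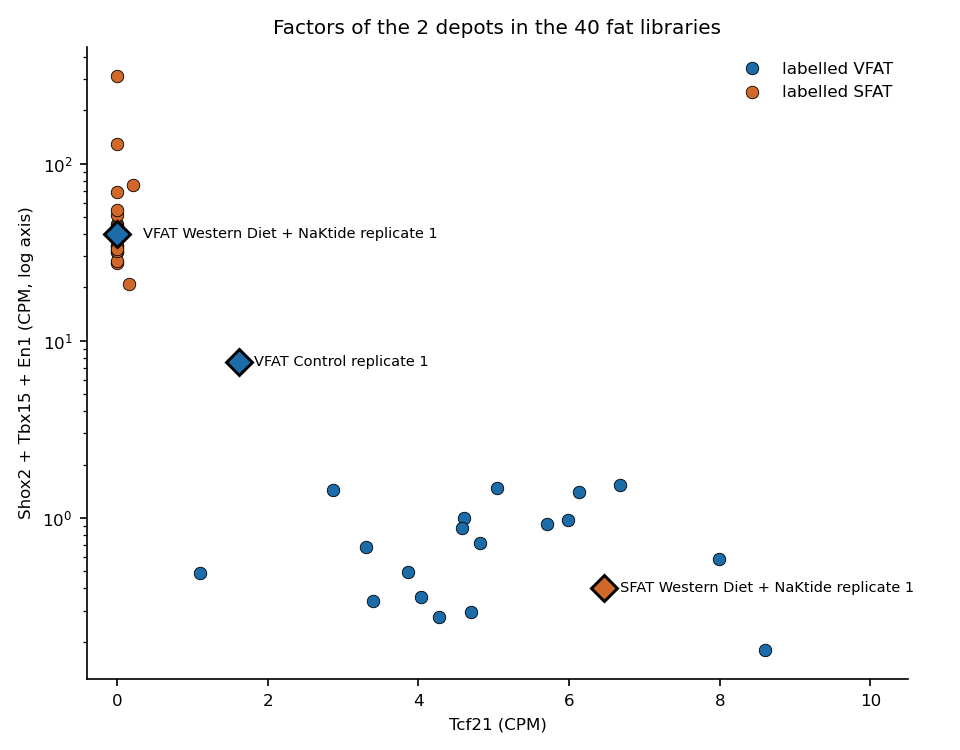
Summed CPM of Shox2, Tbx15 and En1 (log axis) against Tcf21 (CPM) in the 40 fat libraries, coloured by labelled depot, with 3 libraries drawn as diamonds. The library labelled VFAT Western Diet + NaKtide replicate 1 lies among the SFAT libraries at 0 CPM of Tcf21, SFAT Western Diet + NaKtide replicate 1 lies among the VFAT libraries at 6.47 CPM, and VFAT Control replicate 1 lies between at 1.62 CPM.

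The HoxC members differed in size of change, from Hoxc10 with the largest, through Hoxc9, to Hoxc8, which was not called. Hoxc10, the rear-most of the members and known to restrain browning of mouse subcutaneous fat (ENSMUSG00000022484, chromosome 15, 102966796 to 102971893, plus strand), had 0 to 24.5 CPM in VFAT with a median of 0.533, against 0.27 to 48.5 CPM in SFAT with a median of 21.3. The 2 highest VFAT values were 24.5 CPM in Control replicate 1 and 10.8 CPM in Western Diet + NaKtide replicate 1, and the SFAT value of 0.27 was the library labelled Western Diet + NaKtide replicate 1. The depots overlapped also without those 2, but 15 of 19 VFAT libraries lay below all 19 SFAT libraries. The change was -4.12 ± 0.54 (adjusted p = 3.09e-06), or -4.45 ± 0.50 without the 2 libraries (adjusted p = 1.5e-07).

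Hoxc9, its neighbour in the cluster (ENSMUSG00000036139, chromosome 15, 102976439 to 102985099), differed less. It had 1.15 to 26.5 CPM in VFAT with a median of 7.69, against 1.38 to 29.4 CPM in SFAT with a median of 18.5, and the groups overlapped widely. The mean was 8.57 ± 5.24 CPM in VFAT and 17.2 ± 8.08 CPM in SFAT (SD, n = 20 each), a log2 change of -1.03 ± 0.28 (adjusted p = 0.00498). This call was lost without the 8 VFAT libraries rich in epididymis and testis genes (-0.78 ± 0.31, adjusted p = 0.111). That fit called 5 of 10 members and 8.32% of 17354 genes. It kept VFAT Control replicate 1, which carried genes of both depots and held the 26.5 CPM of Hoxc9.

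Hoxc8, which is known to act against brown fat differentiation in mice (ENSMUSG00000001657, chromosome 15, 102990607 to 102994111), had 2.94 to 159 CPM in VFAT with a median of 77.1, against 23.4 to 120 CPM in SFAT with a median of 82.8. Its means were 79.7 ± 39.3 CPM in VFAT and 81.3 ± 22.4 CPM in SFAT (SD, n = 20 each), a difference well within the spread of either depot (log2 change -0.05 ± 0.24, adjusted p = 0.899). The lowest VFAT values, 2.94, 22.1 and 25.8 CPM, came from libraries rich in epididymis and testis genes. On Western Diet all 5 VFAT libraries (52.7 to 68.6 CPM) lay below all 5 SFAT libraries (68.8 to 96.1 CPM). That change was not called by edgeR (-0.38 ± 0.48, adjusted p = 0.693), and the share of all genes that separate so was not computed. The annotated model of Hoxc5 spans Hoxc8, Hoxc9 and Hoxc10 on the same strand and held 7897 counts, so reads of this stretch could be divided between them.

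The other 3 members did not pass the test between depots. Hoxa5, a HoxA gene of the front part of the cluster that is known to act in fat cell differentiation (ENSMUSG00000038253, chromosome 6, 52201754 to 52204587), had 1.53 to 14.6 CPM in VFAT with a median of 4.94, against 1.49 to 16 CPM in SFAT with a median of 6.17 (log2 change 0.02 ± 0.23, adjusted p = 0.97). Nr2f1, the orphan nuclear receptor COUP-TFI (ENSMUSG00000069171, chromosome 13, 78188973 to 78199757), had 0.766 to 10.2 CPM in VFAT with a median of 3.14, against 0.989 to 11.9 CPM in SFAT with a median of 2.14. Its change of 0.55 ± 0.26 had an adjusted p of 0.108. Leaving out SFAT Western Diet + NaKtide replicate 4, which held the 11.9 CPM and 62.4 CPM of mesothelium genes, gave 0.79 ± 0.23 (adjusted p = 0.00713), and leaving out SFAT Western Diet replicate 5 gave 0.66 ± 0.26 (adjusted p = 0.0474). Nr2f1 was also called higher by voom with quality weights (1.05 ± 0.19, adjusted p = 0.0001) and under the rule on mesothelium genes (0.90 ± 0.25, adjusted p = 0.00666). Gata6, a zinc finger factor that also marks peritoneal macrophages in mice (ENSMUSG00000005836, chromosome 18, 11052064 to 11085635), had 0.92 to 17.2 CPM in VFAT with a median of 8.71, against 1.33 to 13 CPM in SFAT with a median of 8.33 (log2 change 0.04 ± 0.24, adjusted p = 0.922).

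Without the 2 libraries the same number of members, 6 of 10, was called, in a fit that called 34.1% of genes. No member had depots that did not overlap among all 40 libraries, where 0.00562% of genes did. With 19 libraries each, 3 members (Shox2, Tbx15 and Tcf21) had depots that did not overlap, against 0.146% of genes, but their own values were part of the reason to leave the 2 libraries out.

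Levels can be compared between genes only per length of transcript, for which the deposited FPKM were used. In VFAT the median FPKM were 22.3 for Hoxc8, 2.58 for Hoxc9, 2.18 for Hoxa5, 1.58 for Tcf21, 1.31 for Gata6, 0.513 for Nr2f1, 0.232 for Hoxc10, 0.0814 for Shox2, 0.0641 for En1 and 0.0327 for Tbx15. Hoxc8 stood apart, with 23.0 ± 11.1 FPKM against 2.89 ± 1.76 FPKM for Hoxc9 (mean ± SD, n = 20), while Hoxc9 and Hoxa5 (2.71 ± 1.5 FPKM) differed by less than their spread, as did Tcf21 (1.57 ± 0.753 FPKM) and Gata6 (1.3 ± 0.723 FPKM). In SFAT the medians were 23.0 for Hoxc8, 8.9 for Hoxc10, 6.21 for Hoxc9, 3.67 for Tbx15, 3.2 for Shox2, 2.59 for Hoxa5, 1.18 for Gata6, 1.03 for En1, 0.337 for Nr2f1 and 0 for Tcf21. There Hoxc8 again came first, and the neighbours Hoxc10 and Hoxc9, Tbx15 and Shox2, and Gata6 and En1 differed by less than their spread. Hoxc10 thus held the second place in SFAT and the seventh in VFAT.

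Within single conditions, members were called between depots in 3 of the 4. In Control mice 4 members were called (27.1% of genes), Shox2 at -4.61 ± 0.92 (adjusted p = 0.00247), Tbx15 at -5.88 ± 1.24 (adjusted p = 0.00336), En1 at -2.71 ± 0.95 (adjusted p = 0.0333) and Tcf21 (adjusted p = 0.00586). Tcf21 had 165 counts in the VFAT and 1 count in the SFAT of Control mice, a ratio of 136 (counting interval 24 to 5390). With Control + NaKtide 5 members were called (14.5% of genes), namely Shox2 at -6.09 ± 0.99, Tbx15 at -9.18 ± 1.51 (adjusted p = 0.000388 for both), En1 at -4.32 ± 1.06 (adjusted p = 0.00601), Hoxc10 at -6.35 ± 1.22 (adjusted p = 0.000838) and Tcf21, which had 146 counts in VFAT and 0 in SFAT and so was at least 32.1-fold higher (floor of 3 counts over the group, adjusted p = 0.00436). On Western Diet 4 members were called (2.07% of genes), Shox2 at -5.00 ± 0.90 (adjusted p = 0.00269), Tbx15 at -6.32 ± 1.37 (adjusted p = 0.0117), Hoxc10 at -6.43 ± 1.19 (adjusted p = 0.0031) and Tcf21, with 264 counts in VFAT and 0 in SFAT, at least 74.4-fold higher (adjusted p = 0.00696). En1 missed the threshold there (-3.28 ± 0.98, adjusted p = 0.0646), and voom called 8 members where it called 44.7% of genes. Tbx15 rests on few counts in VFAT, 5 against 1137 in SFAT with Control + NaKtide, a ratio of 0.0029 (counting interval 0.000939 to 0.00678), and 8 against 583 on Western Diet, a ratio of 0.0116 (counting interval 0.00499 to 0.023). Shox2 had 7 counts in VFAT against 389 in SFAT with Control + NaKtide (ratio 0.0119, counting interval 0.00473 to 0.0247), and En1 had 7 against 111 (ratio 0.0415, counting interval 0.0163 to 0.0885). Over the 4 conditions Hoxc8 was at -0.38 to 0.45, Hoxc9 at -1.52 to -0.37, Hoxa5 at -0.88 to 1.08, Nr2f1 at 0.11 to 1.08 and Gata6 at -0.60 to 0.60. None of these 5 was called in any condition by edgeR with all 40 libraries. Voom called some of them on Western Diet, among its 8 members, and with Control + NaKtide, among 7 (5986 of 17788 genes).

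The calls in Control mice varied with the fit, while 3 to 5 members were called with 1 library left out. No member was called when the 8 VFAT libraries rich in epididymis and testis genes, 3 of them Control, were left out, but that fit called 0.0173% of 17354 genes, with Shox2 at -3.80 ± 1.05 (adjusted p = 0.168) and Tbx15 at -5.29 ± 1.52 (adjusted p = 0.181). None was called without the 7 muscle-rich SFAT libraries, which leaves 1 SFAT Control library and called 0.172% of 22096 genes, with Shox2 at -4.59 ± 1.25 (adjusted p = 0.174). Voom with quality weights called none (2.05% of genes), and DESeq2 called 4 (29.5% of genes). Where so few genes are called, 0 members called says little about the members. En1 in Control mice lost its call in 8 of 10 fits that left out 1 library (adjusted p 0.00257 to 0.113 over the 10). Hoxc10 was not called in Control mice (-1.47 ± 0.93, adjusted p = 0.243), and without VFAT Control replicate 1 and the other 2 doubted libraries it was (-3.41 ± 0.85, adjusted p = 0.00422), at 24.5 CPM in that replicate against 0 to 4.05 CPM in the other 4.

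In Western Diet + NaKtide mice no member was called by edgeR, where 2.41% of genes were. Unadjusted p was under 0.05 for 3 members, and DESeq2 (6.72% of genes) and voom with quality weights (3.11% of genes) called 1 member each. Shox2 had 6.53, 0.138, 0.732, 0.436 and 0.287 CPM in VFAT, against 0, 12.4, 16.8, 7.26 and 17.3 CPM in SFAT. Tbx15 had 25.8, 0, 0.122, 0.436 and 0.574 CPM in VFAT, against 0.135, 15.1, 13.8, 12.1 and 13.4 CPM in SFAT. Tcf21 had 0, 4.27, 5.98, 4.58 and 2.87 CPM in VFAT, against 6.47, 0, 0, 0.165 and 0 CPM in SFAT. In all 3 genes replicate 1, given first, held the level of the other depot. The other 4 libraries of each depot did not overlap, but the share of all genes that separate so was not computed. These values were also part of the reason to doubt replicate 1. Without those 2 libraries 4 members were called (2.3% of 18355 genes), Shox2 at -4.98 ± 0.66 (adjusted p = 3.15e-05), Tbx15 at -5.80 ± 1.11 (adjusted p = 0.00402), En1 at -3.89 ± 0.95 (adjusted p = 0.0229) and Tcf21 with 111 counts in VFAT against 1 in SFAT, a ratio of 141 (counting interval 24.8 to 5610; adjusted p = 0.000129). The rule on mesothelium genes alone also gave 4 members, in a fit that called 1.1% of genes.

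**Figure D4:**
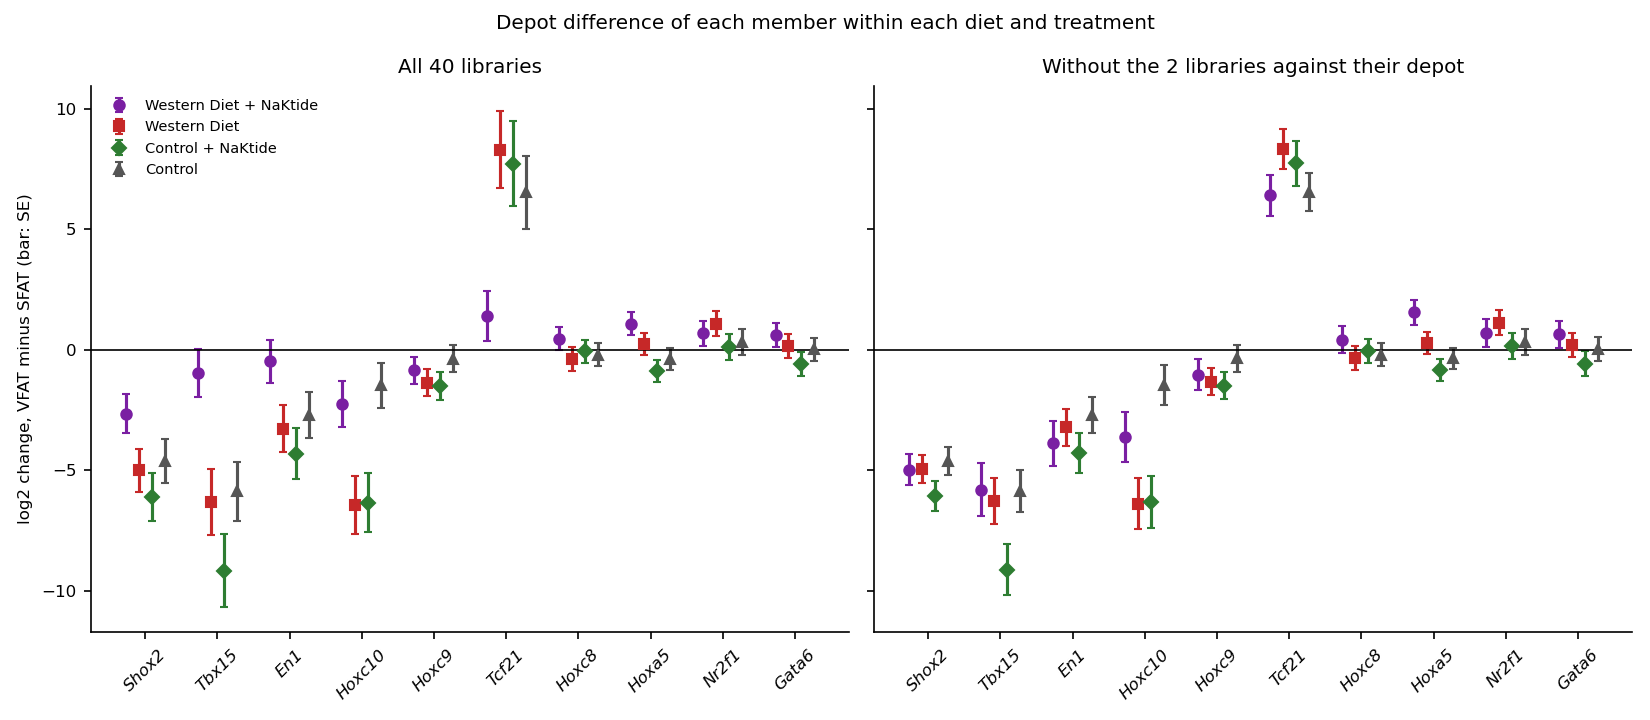
Log2 change of each member, VFAT minus SFAT, within each of the 4 conditions, with all 40 libraries (left) and without replicate 1 of Western Diet + NaKtide in each depot (right); bars are standard errors. Shox2 in Western Diet + NaKtide stands at -2.65 on the left and -4.98 on the right; the fitted size of Tcf21 depends on the prior count because SFAT has almost no counts.

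Diet and NaKtide were then compared within each depot, in 1 model per depot. Shox2, Tbx15 and En1 had too few counts to be tested in VFAT, which left 7 members there, and Tcf21 had too few in SFAT, which left 9. The direction is Western Diet minus Control, or NaKtide minus none.

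In VFAT without NaKtide, Western Diet changed 1 member, Hoxc10, where 24.7% of the 17235 genes tested were called. Hoxc10 had 0.794, 0.705, 0.103, 0.0918 and 0.2 CPM on Western Diet, against 24.5, 1.26, 1.08, 4.05 and 0 CPM in Control (log2 change -3.97 ± 1.24, adjusted p = 0.0311). The 2 groups overlapped in 1 Control library at 0 CPM, and Control alone ranged up to 24.5 CPM. Without VFAT Control replicate 1 the change was -1.98 ± 1.06 (adjusted p = 0.16), and leaving out any of 5 single libraries ended the call. NaKtide on Control gave the same picture, with Hoxc10 the single member called among 7.14% of genes. It had 0.357, 0.362, 0.294, 0.122 and 0.249 CPM in VFAT with NaKtide, set against the same Control libraries (-4.39 ± 1.28, adjusted p = 0.0434), and without VFAT Control replicate 1 it was at -2.38 ± 1.09 (adjusted p = 0.162); 7 of 10 fits with 1 library left out ended that call. These 2 comparisons share their Control libraries.

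With NaKtide, Western Diet changed no member in VFAT by edgeR (4.86% of genes called, 4 members under an unadjusted p of 0.05), while DESeq2 (9.65% of genes) and voom (19.1% of genes) called 3 each. Hoxc10 had the smallest p, with 10.8, 0.827, 0.122, 2.4 and 4.3 CPM in Western Diet + NaKtide, against 0.357, 0.362, 0.294, 0.122 and 0.249 CPM in Control + NaKtide. Of the Western Diet + NaKtide libraries, 4 lay above all 5 of Control + NaKtide. The change of 3.66 ± 1.25 (adjusted p = 0.11) has the opposite sign to that without NaKtide, and without the 2 libraries, of which replicate 1 held the 10.8 CPM, it was 2.62 ± 1.24 (adjusted p = 0.314). Gata6 had 12.7, 15.7, 13.9, 17.2 and 1.15 CPM in Western Diet + NaKtide, against 4.28, 4.1, 6.17, 4.76 and 2.49 CPM in Control + NaKtide. Thus 4 of 5 libraries lay above all 5 of Control + NaKtide, and the fifth, replicate 5, lay below them all; it held 52480 CPM of epididymis genes. The Gata6 change was 1.46 ± 0.57 (adjusted p = 0.173), and without replicate 5 it passed the test (adjusted p = 0.0433). Nr2f1 had 4.44, 10.2, 7.2, 7.63 and 2.01 CPM in Western Diet + NaKtide, against 2.38, 1.93, 2.5, 2.07 and 3.11 CPM in Control + NaKtide (1.38 ± 0.48, adjusted p = 0.125, and 1.54 ± 0.30 with adjusted p = 0.00123 by voom). On Western Diet, NaKtide against none changed no member in VFAT by edgeR (13.1% of genes called, 1 member under an unadjusted p of 0.05, and 1 each by DESeq2, with 26.7% of genes, and voom, with 42.9%), and Hoxc10 came nearest at 3.24 ± 1.21 (adjusted p = 0.0764). Tcf21, the visceral preadipocyte factor, was at -0.67 to 0.13 on the log2 scale in the 4 VFAT comparisons, with standard errors of 0.69 to 0.70 (adjusted p 0.536 to 0.968). Over the same 4 comparisons Hoxc8 was at -0.09 to 0.66, Hoxc9 at -0.76 to 0.56, Hoxa5 at -0.93 to 1.05, and Nr2f1 at -0.38 to 1.38. Gata6 was lowest with NaKtide on Control (adjusted p = 0.249) and highest at 1.46 in diet with NaKtide. None of them was called by edgeR with all libraries kept, and Nr2f1 came nearest, in diet with NaKtide (adjusted p = 0.125).

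In SFAT no member was called in any of the 4 comparisons by edgeR. Western Diet against Control called 5.52% of the 15226 genes tested, and the others called 0% (diet with NaKtide, NaKtide on Western Diet and NaKtide on Control). Members under an unadjusted p of 0.05 numbered 2 for diet, 1 for diet with NaKtide, 1 for NaKtide on Western Diet and 0 for NaKtide on Control. For diet DESeq2 called 0 members (11.3% of genes) and voom 2 (24.3%). For diet with NaKtide DESeq2 called 1 (7.84%) and voom 0 (3.77%). For NaKtide on Western Diet both called 0 (1.27% of genes by DESeq2 and 4.24% by voom), and for NaKtide on Control both called 0 members and 0% of genes. Outside Tbx15 and Hoxa5, log2 changes over the 4 comparisons were -0.63 to 0.84 for Shox2, -0.70 to -0.43 for En1, -0.33 to 0.26 for Hoxc8, -0.10 to 0.41 for Hoxc9, -0.88 to 0.93 for Hoxc10, -0.59 to 1.24 for Nr2f1 and -0.37 to 0.27 for Gata6.

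The members nearest the threshold in SFAT were Tbx15 and Hoxa5. Tbx15 had 9.37, 14.3, 15.9, 18.7 and 13.1 CPM on Western Diet, against 31.1, 58.4, 110, 19.7 and 61.8 CPM in Control. All 5 Western Diet libraries lay below all 5 Control libraries, but the share of all genes that separate so was not computed. For Tbx15 the fit gave -2.01 ± 0.79 (adjusted p = 0.14). Its adjusted p was 0.0346 by voom (-1.90 ± 0.62) and 0.00874 in a fit of these 2 groups alone. Skeletal muscle genes moved with it, at 87.1 to 289 CPM on Western Diet against 8750 to 65300 CPM in Control, and with the 7 muscle-rich libraries left out the Tbx15 change was -0.48 ± 0.96 (adjusted p = 0.972), with 1 Control library left. Hoxa5 had 3.92, 4.45, 2.37, 1.91 and 8.57 CPM on Western Diet, against 7.92, 11.3, 12.4, 6.79 and 10.8 CPM in Control, overlapping in 1 Western Diet library (log2 change -1.24 ± 0.45, adjusted p = 0.105, and -1.52 ± 0.33 with adjusted p = 0.00314 by voom).

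With NaKtide, Tbx15 had 0.135, 15.1, 13.8, 12.1 and 13.4 CPM on Western Diet, against 24.4, 307, 16.3, 30.8 and 40.7 CPM on chow, and again all 5 Western Diet libraries lay below all 5 on chow (-2.89 ± 0.83, adjusted p = 0.08). The share of all genes that separate so was not computed here either. Tbx15 was called by DESeq2 (adjusted p = 0.00362) and without SFAT Control + NaKtide replicate 3 (adjusted p = 0.0266). Without the muscle-rich libraries it stood at -1.11 ± 0.73 (adjusted p = 0.571).

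The depots were also compared in their response. In the effect of Western Diet without NaKtide no member differed between VFAT and SFAT by edgeR (2.21% of genes called, 1 member under an unadjusted p of 0.05, 1 by DESeq2 with 7.74% of genes, and 0 by voom with 3.63%). Hoxc10 came nearest at -4.97 ± 1.44 (adjusted p = 0.0566) and was called in 3 of 20 fits that left out 1 library, and the other 9 members were at -1.01 to 1.78 (adjusted p 0.481 to 0.953). In the effect of NaKtide on Western Diet 1 member differed, Tcf21 (2.94% of genes called, adjusted p = 0.0445). The fitted size is not given as a fold, since SFAT had 49 counts of Tcf21 in Western Diet + NaKtide and 0 on Western Diet, where VFAT had 111 counts in Western Diet + NaKtide and 264 on Western Diet. Replicate 1 of SFAT Western Diet + NaKtide had 6.47 CPM of Tcf21, and SFAT otherwise had 0 to 0.165 CPM of Tcf21 in that group and 0 CPM in all 5 Western Diet libraries. Without the 2 libraries the adjusted p was 0.43, with 1 SFAT count left in Western Diet + NaKtide, and 14 of 20 fits that left out 1 library also lost the call. The other 9 members were not called there by edgeR with all libraries kept. Nearest were Tbx15 at 5.35 ± 1.67 (adjusted p = 0.0706) and Hoxc10 at 4.19 ± 1.43 (adjusted p = 0.0949), and Tbx15 too has its opposite depot's level in both replicates 1.

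The rest of the Hox genes were examined cluster by cluster, and other gene lists after them. Of all genes tested, 20.2% were called higher and 12.6% lower in VFAT, the shares to set beside each list. Of the 17788 genes, DESeq2 called 4013 higher and 2208 lower, and voom called 2250 higher and 2582 lower. Without the 8 VFAT libraries rich in epididymis and testis genes, 8.32% of genes were called. In the HoxA cluster 3 of 7 genes tested were lower in VFAT and none was higher, with a median log2 change of -0.50, where the median of all genes tested was 0.05. The rear genes differed most. Hoxa9 averaged 2.32 ± 3.48 CPM in VFAT and 8.27 ± 3.88 CPM in SFAT (SD, n = 20 each; -2.72 ± 0.39, adjusted p = 9.28e-06), and Hoxa10 averaged 2.86 ± 5.5 CPM in VFAT and 12.3 ± 7.58 CPM in SFAT (-4.05 ± 0.59, adjusted p = 1.01e-05). In the HoxC cluster 2 of 6 tested were lower, the members Hoxc9 and Hoxc10, and voom called 1 higher and 2 lower. Without the 8 VFAT libraries 1 was higher and 1 was lower, with 5 of 6 under an unadjusted p of 0.05. Hoxc4, toward the front, averaged 19 ± 10 CPM in VFAT and 13 ± 5.99 CPM in SFAT (0.55 ± 0.26, adjusted p = 0.111) and was called higher without the 2 libraries (0.71 ± 0.26, adjusted p = 0.0353). Hoxc5 averaged 22.4 ± 11.1 CPM in VFAT and 32.6 ± 8.37 CPM in SFAT and was not called (-0.53 ± 0.23, adjusted p = 0.072).

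In the HoxB cluster 6 of 8 tested were higher in VFAT and none was lower, with a median of 0.93. DESeq2 called 7 of the 8 higher, but voom with quality weights, which gives libraries that stand apart less weight, called 1. Of all 17788 genes DESeq2 called 4013 higher and voom 2250, against 3597 by edgeR. Hoxb6 averaged 66.4 ± 132 CPM in VFAT and 5.86 ± 2.26 CPM in SFAT (2.57 ± 0.52, adjusted p = 0.000416), and Hoxb9 averaged 17.5 ± 32.3 CPM in VFAT and 2.28 ± 0.881 CPM in SFAT (2.23 ± 0.44, adjusted p = 0.000341). Epididymis and testis genes were over 1000 CPM in 8 of the VFAT libraries. Without those 8 libraries 0 of 8 HoxB genes were called by edgeR (1 under an unadjusted p of 0.05), the median was 0.11, Hoxb6 stood at 0.08 ± 0.21 (adjusted p = 0.848) and Hoxb9 at 0.23 ± 0.17 (adjusted p = 0.437). HoxD had 2 of 3 tested higher (1 by voom), among them Hoxd8 (0.88 ± 0.26, adjusted p = 0.00922) and Hoxd3, with 94 counts in VFAT and 7 in SFAT (ratio 11.6, counting interval 5.39 to 29.5), and the noncoding RNAs had 2 of 5 higher (1 higher and 1 lower by voom), Haglr (2.61 ± 0.51, adjusted p = 0.000303) and Hoxb5os (2.87 ± 0.68, adjusted p = 0.00152). Without the 8 libraries 0 of the 2 HoxD genes and 0 of the 3 noncoding RNAs still tested were called by edgeR, with 1 of each list under an unadjusted p of 0.05. Hoxa9 at -2.77 ± 0.42 (adjusted p = 0.000161) and Hoxa10 at -4.82 ± 0.77 (adjusted p = 0.000403) remained lower there, as did the member Hoxc10 at -3.78 ± 0.59 (adjusted p = 0.000222).

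**Figure D5:**
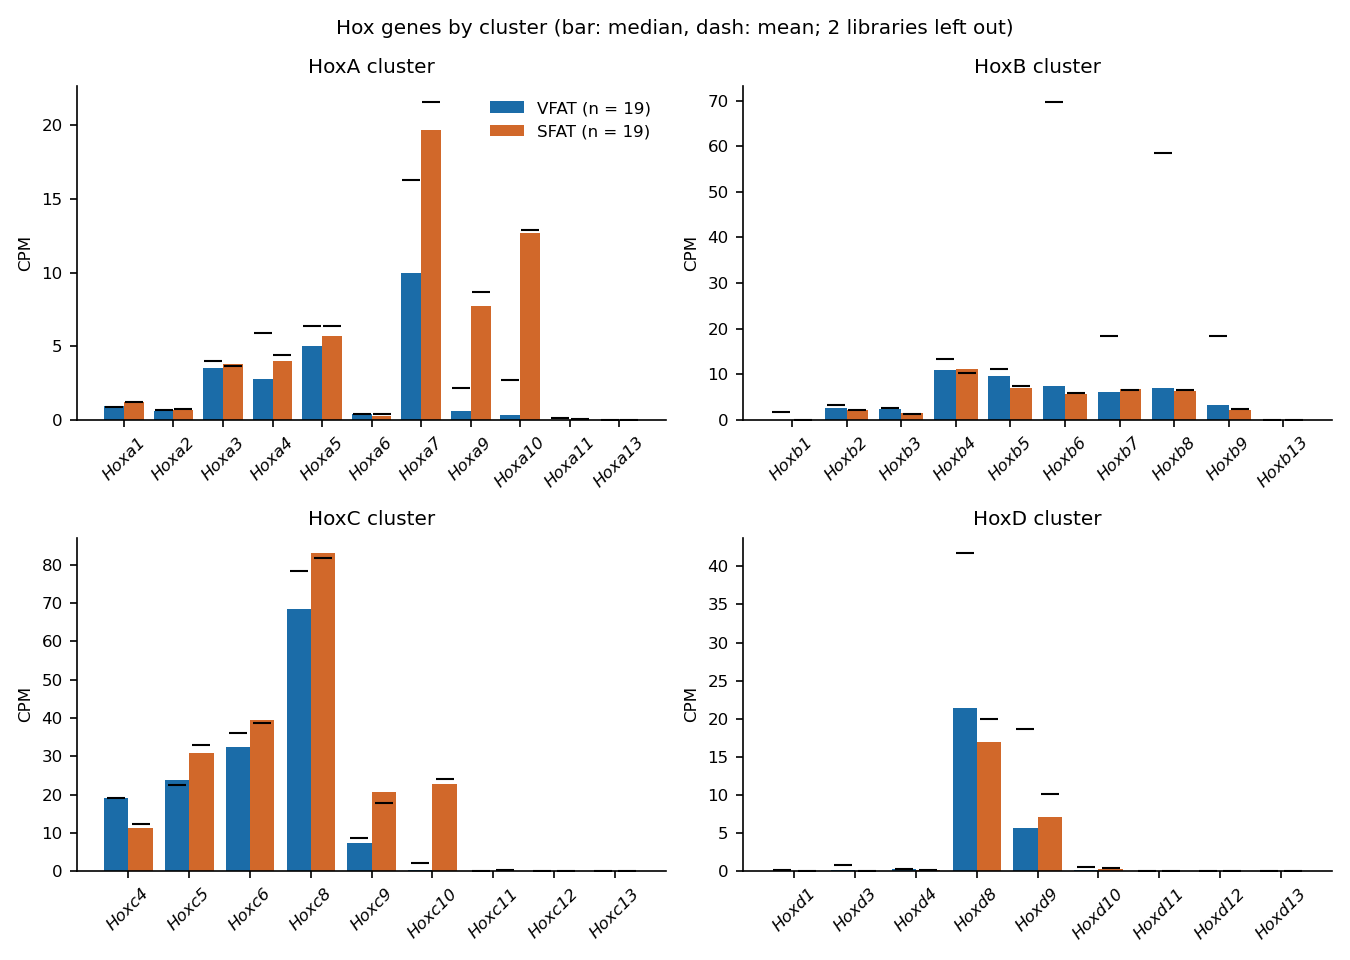
CPM of every Hox gene by cluster, from front (left) to rear (right), in VFAT and SFAT with 19 libraries each; bars are medians and dashes are means. The VFAT bars of Hoxa9 (median 0.567), Hoxa10 (0.34), Hoxc9 (7.44) and Hoxc10 (0.362) are lower than the SFAT bars (7.76, 12.7, 20.8 and 22.9), while for Hoxb6 the VFAT mean of 69.7 stands far above its median of 7.31.

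Hox proteins bind DNA with cofactors of the Meis, Pbx and Pknox families, and 4 of 9 of these were higher in VFAT and none was lower (median 0.16). Pbx3 averaged 5.56 ± 2.24 CPM in VFAT and 3.53 ± 0.805 CPM in SFAT (0.64 ± 0.15, adjusted p = 0.00136) and Pbx4 averaged 5.79 ± 17.1 CPM in VFAT and 0.445 ± 0.634 CPM in SFAT (3.37 ± 0.77, adjusted p = 0.00119). Without the 8 VFAT libraries 2 of 8 were called, and Pbx3 was not (0.39 ± 0.14, adjusted p = 0.08). Close relatives of the members gave no call. Of 4 paralogues tested 0 were called by edgeR and 0 had an unadjusted p under 0.05, with 0 called by DESeq2 and 0 by voom, among them Tbx18, a relative of Tbx15 (-0.22 ± 0.27, adjusted p = 0.581), and Msc, a relative of Tcf21 (-0.46 ± 0.32, adjusted p = 0.287).

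Limb and body wall factors were mostly lower in VFAT, as Shox2, Tbx15 and En1 were. Of 12 tested, 8 were lower in VFAT and 1 was higher (median -0.91). Twist2, a dermal mesenchyme factor, averaged 3.89 ± 2.13 CPM in VFAT and 10.2 ± 3 CPM in SFAT (-1.42 ± 0.21, adjusted p = 1.04e-05), and the homeobox gene Msx1 averaged 3.43 ± 0.953 CPM in VFAT and 6.17 ± 1.38 CPM in SFAT (-0.84 ± 0.14, adjusted p = 4.94e-05). The exception was Alx1, a homeobox gene known from craniofacial mesenchyme, with 415 counts in VFAT and 4 in SFAT, a ratio of 89.3 (counting interval 34.6 to 329; adjusted p = 6.1e-06). Fibroblast progenitor markers, 9 genes all detected in both depots, moved with this list, at 206 to 2100 CPM in VFAT and 1410 to 3110 CPM in SFAT, and their part in the result was not tested. Without the 8 VFAT libraries 9 of 13 were lower and 1 was higher.

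Factors of the coelomic and visceral mesoderm included genes on the same side as Tcf21. Of 6 tested, 2 were higher in VFAT and none was lower (median 0.89), against 4 higher by DESeq2 and by voom. Without the 8 VFAT libraries rich in epididymis and testis genes 3 were higher and 1 was lower. Wt1, the mesothelial zinc finger factor, had 960 counts in VFAT and 55 in SFAT, a ratio of 15 (counting interval 11.4 to 20.1; adjusted p = 4.42e-05), and without the 2 libraries SFAT kept 1 count. Bnc1, which is known from mesothelium, had 278 counts in VFAT and 6 in SFAT, a ratio of 39.9 (counting interval 18.1 to 110; adjusted p = 1.26e-05). Among 10 adipocyte transcription factors 4 were lower in VFAT and none was higher (median -0.32), but without those 8 libraries 2 were lower and the median was -0.01. Prdm16, a regulator of thermogenic fat, averaged 8.87 ± 3.31 CPM in VFAT and 16.9 ± 5.82 CPM in SFAT (-0.93 ± 0.17, adjusted p = 0.000183), and Srebf1, a regulator of lipid synthesis, averaged 332 ± 105 CPM in VFAT and 430 ± 109 CPM in SFAT (-0.37 ± 0.13, adjusted p = 0.0246). Without the 8 VFAT libraries Srebf1 was not called (-0.08 ± 0.11, adjusted p = 0.689), and adipocyte markers reached as low as 937 CPM in those libraries.

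Genes whose levels ran most like each member's over the 40 libraries were sought among 17363 genes by Spearman correlation, which includes the depot difference itself and any effect of a library that genes share. Hoxc10 was closest to Hoxa9 (0.899) and Hoxa10 (0.869), and Hoxc9 to Hoxc10 (0.821). Shox2 was closest to the matrix gene Dpt (0.87). Tcf21 was closest to Penk (0.887) and Wt1 (0.884). En1 was closest to Zfhx4 (0.84) and the homeobox gene Gsc (0.834), and Tbx15 to Atg4d (0.843) and the muscle sarcomere gene Myot (0.842). Hoxc8 was closest to its neighbour Hoxc6 (0.879) and to Rbpms2 (0.868). The highest values were 0.768 for Hoxa5, with Cdkn1c, 0.739 for Nr2f1, with Htra4, and 0.84 for Gata6, with Tfpi.

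The 20 livers of the series gave a background for these genes. Shox2, Tbx15, En1, Hoxc8, Hoxc9 and Hoxc10 had 0 to 6 counts over all 20 livers. Tcf21 had 525 counts and Gata6 334, and both were detected in every liver, while Hoxa5 and Nr2f1 had 44 counts each.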

How the data were processed

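Messenger RNA of visceral and subcutaneous fat was sequenced from a stranded library kit, per the labels' protocols. Trimmomatic 0.38 and HISAT2 2.1.0 are listed in the submitters' processing notes, with the GRCm38 build and DESeq2 1.20.0; the counting program, its annotation and its strand setting are not among them. The values used are the raw counts per Ensembl gene that the authors deposited, and the FPKM (counts per length and per library total) that the authors deposited, which were used only to order genes within a depot. The authors' table of normalized counts was not used.

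Raw counts went into edgeR 4.0.16 under R 4.3.3, with genes kept by filterByExpr, TMM scaling, a robust quasi-likelihood F-test and Benjamini-Hochberg adjustment at 0.05. Depots were compared in 1 model of 40 libraries and 8 groups, and diet and NaKtide in 1 model per depot. Levels are CPM with TMM scaling over the 40 fat libraries. Tcf21 and the list genes nearest 0 in a depot (Hoxd3, Alx1, Bnc1 and Wt1) are given as ratios of summed counts with an exact 95% interval, or against a floor of 3 counts, and these intervals and floors cover counting error only. Shox2, Tbx15 and En1 are given as fitted log2 changes, with such ratios where VFAT had under 10 counts in a main comparison. The code was tested on simulated data.

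The members and the gene lists were chosen with earlier results of these data known. All 10 members are described in each comparison, those without a call mostly by their range. Of each list the 2 genes called higher and the 2 called lower with the smallest p are named, or the 2 with the smallest p where none was called, and for each member the genes most like it over the 40 libraries. Alternatives were RLE scaling, no filter on low counts, DESeq2 1.42.0, voom with quality weights (limma 3.58.1), replicate number as a block, only the groups compared, each library left out, and sets of libraries left out by mesothelium, epididymis and testis, or muscle genes. Leaving out the 2 libraries against their depot, or these and VFAT Control replicate 1, was chosen after seeing the data. The NaKtide transgene was not analysed here. A result on 1 other gene is not reported here.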

Additional observations from a re-analysis of the deposited data

Results flagged for a closer look

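Each group of 5 libraries was searched for a highest or lowest library that stood apart from the rest by Dixon's test. Of 78 groups of a member with any spread, 16 held such a library, where chance alone gives about 1 in 20, or 3.9.

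Replicate 1 of Western Diet + NaKtide stood apart in both depots. In VFAT it was the highest library for Shox2 at 6.53 CPM, Tbx15 at 25.8 CPM and En1 at 7.52 CPM. In SFAT it was the lowest library for Tbx15 at 0.135 CPM and the highest for Tcf21 at 6.47 CPM. VFAT Control replicate 1 was the highest of its group for Tbx15 at 3.24 CPM, En1 at 3.42 CPM and Hoxc10 at 24.5 CPM.

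SFAT Control + NaKtide replicate 2, which held the highest level of muscle genes, was the highest of its group for Tbx15 at 307 CPM and the lowest for Hoxc8 at 23.4 CPM. SFAT Western Diet + NaKtide replicate 4 was the highest of its group for Nr2f1 at 11.9 CPM. VFAT Western Diet + NaKtide replicate 5 was the lowest of its group for Gata6 at 1.15 CPM, and VFAT Control + NaKtide replicate 4 was the lowest for Tcf21 at 1.1 CPM. Among members near 0 or at low levels, the highest library had 0.642 CPM of Tbx15 in VFAT Western Diet, 0.212 CPM of Tcf21 in SFAT Control and 5.74 CPM of En1 in SFAT Western Diet.

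The effect of NaKtide on Western Diet differed between VFAT and SFAT for Tcf21 by edgeR (adjusted p = 0.0445). The fitted log2 value of -6.90 depends on the prior count, since SFAT had 0 counts on Western Diet, and is no size of the difference. Without the 2 libraries against their depot the adjusted p was 0.43.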

How the results depend on the processing

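Counts of members called are given against the value of the report. Between depots in Control mice, 4 were called, against 0 by voom, 0 without the VFAT libraries rich in epididymis and testis genes and 0 without the muscle-rich SFAT libraries (3 to 5 with 1 library left out); these fits called 365, 3 and 38 genes, against 4828 in the report's fit. In Control + NaKtide, 5 were called, against 2 without the muscle-rich libraries and 2 with only the groups compared (5 to 6). Without the muscle-rich libraries 11 of 22096 genes were called there, against 2576 of 17788 in the report's fit. On Western Diet, 4 were called, against 8 by voom, which called 7948 of 17788 genes where the report's fit called 368, and 3 with the replicate block within condition (4 in each fit with 1 library left out). In Western Diet + NaKtide, 0 were called, against 1 by DESeq2, 1 by voom, 4 by the mesothelium rule, 4 without the 2 libraries against their depot and 5 without 3 doubted libraries (0 to 3, the 3 without VFAT replicate 1). The depot mean gave 6, and 5 to 7 in all alternatives run, in fits that called 765 to 7601 genes.

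In VFAT, diet without NaKtide called 1, against 0 without a filter, 0 with the replicate block, 0 with only the groups compared, 0 without 3 doubted libraries, 3 by voom and 2 without the libraries rich in epididymis and testis genes (0 to 1). NaKtide on Control called 1, against 0 in the same first 4 alternatives, 3 by voom and 4 without those libraries (0 to 1). Diet with NaKtide called 0, against 3 by DESeq2, 3 by voom, 5 without those libraries and 1 with only the groups compared (0 to 1). NaKtide on Western Diet called 0, against 1 by DESeq2, 1 by voom and 3 without those libraries (0 in each fit with 1 library left out). Without those libraries VFAT Western Diet + NaKtide loses replicates 2, 3 and 5, and VFAT Control loses replicates 3, 4 and 5. Replicate 1 of each, named above for genes of the other depot, stays in. In SFAT, diet called 0, against 2 by voom, 1 by the mesothelium rule and 2 with only the groups compared, and diet with NaKtide called 0, against 1 by DESeq2 (0 to 1). Numbers of all genes called moved too, over alternatives other than single libraries left out. In VFAT they were 1851 to 6501 for diet without NaKtide (4259 in the report's fit) and 714 to 3568 for NaKtide on Control (1231). For diet with NaKtide they were 392 to 3299 (838), and for NaKtide on Western Diet 1001 to 7388 (2250). In SFAT they were 0 to 3707 for diet (840) and 0 to 1194 for diet with NaKtide (0).

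The depot difference in the diet effect called 0, against 1 by DESeq2, 1 by the mesothelium rule and 1 without the 2 libraries (0 to 1). Those fits called 1377, 646 and 451 genes, against 394 in the report's fit. The depot difference in the effect of NaKtide on Western Diet called 1 (0 to 2 with 1 library left out). It called 3 by DESeq2 and 3 without the VFAT libraries rich in epididymis and testis genes. These fits called 1572 and 1086 genes, against 523 in the report's fit. Without a filter, with the replicate block, with the block within condition, by voom or by the mesothelium rule it called 0. It also called 0 without the muscle-rich libraries, without the 2 or the 3 libraries, and with only the groups compared. The cause was not tested for any of these. No member changed direction where it was called.

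Replicate numbers gave no sign of pairing the samples. The deviations of same-numbered VFAT and SFAT libraries of 1 condition correlated over 0.1 in 2 of 20 pairs (median -0.0191). Of the 20 libraries 2 matched their own number best. Such deviations also carry muscle, epididymis and testis transcripts and the 2 libraries against their depot. They therefore cannot show whether 1 mouse gave both depots. The lower limit set by depth is plain for Shox2, Tbx15 and En1 in VFAT and Tcf21 in SFAT, which had too few counts to test diet or NaKtide.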
